A study of Mus musculus with 2 samples.

Results

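The genes described here belong to the prostaglandin pathway: the cyclooxygenases Ptgs1 and Ptgs2, the terminal synthases Ptges, Ptgis and Ptgds, the receptors Ptgfr, Ptger2 and Ptger4, and the inactivating enzyme Hpgd. They are 9 of the 27998 genes in the count files. They were chosen by name, as genes of one pathway, with earlier results of these data known. Their UMIs (unique molecular identifiers, each counting 1 captured transcript) were summed per cell class and tissue, and over fibro-adipogenic progenitors (FAPs), the resident mesenchymal cells of muscle, taken as barcodes with at least 1 Pdgfra UMI and at least 50 Dcn UMIs. Levels are in CPM, the UMIs of a gene per 1000000 UMIs of the class. UMIs collapse PCR copies, and all intervals are 95% exact intervals, Poisson for levels, Clopper-Pearson for shares of cells and conditional binomial for ratios, and cover counting error only. Where a count was 0, the limit given is the level or share that 3 UMIs or cells would give.

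The data are a single-cell RNA-seq assay of mononuclear cells of mouse quadriceps and diaphragm, with 1 library for each muscle. The mice were C57BL/6J, with no treatment, transgene or mutation given and with neither age nor sex stated in the labels. Muscle was digested with collagenase B and dispase II at 37 °C for 1 h, cells were separated on Lympholyte-M and viable cells were sorted by light scatter. The series used 10 mice and the cells of each muscle were pooled before encapsulation, so that tissue, animal pool and library cannot be told apart and no p-value can be given. The quadriceps library held 5159 barcodes and 50854519 UMIs, and the diaphragm library 2499 barcodes and 28545242 UMIs. Within the limits on total UMIs, FAPs were 2339 of 5010 quadriceps barcodes and 2008 of 2430 diaphragm barcodes, with medians of 10782 and 12573 UMIs. Pdgfra and Dcn chose the FAPs, and of the markers that did not, Col1a1, Col3a1, Lum, Cd34 and Ly6a, each was found in 85.8% to 100% of FAPs of either library. Of all 7658 barcodes, 5 sequences occurred in both libraries.

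Prostaglandins are short-lived lipid mediators made from arachidonic acid, which phospholipase A2 enzymes release from membranes. A cyclooxygenase turns arachidonic acid into prostaglandin H2, and a terminal synthase then makes the active product: prostaglandin E2 (Ptges), prostacyclin (Ptgis) or prostaglandin D2 (Ptgds). Ptgs1 is the form classically described as constitutive and Ptgs2 the form induced by growth factors, cytokines and cell stress. The products act on neighbouring cells through G protein-coupled receptors and are inactivated by Hpgd after uptake from outside the cell. In muscle, prostaglandins are known for roles in inflammation, blood flow and regeneration.

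The cyclooxygenases catalyse the step that the products share, and their promoters are shown because one gene of the pair is the inducible form. The windows run from 250 bases before the RefSeq start to 30 bases from it in the GRCm38.p6 build, on the plus strand, at chr2:36230176-36230455 for Ptgs1 and chr1:150099781-150100060 for Ptgs2. Capitals mark the matches to the motifs named below.
Ptgs1: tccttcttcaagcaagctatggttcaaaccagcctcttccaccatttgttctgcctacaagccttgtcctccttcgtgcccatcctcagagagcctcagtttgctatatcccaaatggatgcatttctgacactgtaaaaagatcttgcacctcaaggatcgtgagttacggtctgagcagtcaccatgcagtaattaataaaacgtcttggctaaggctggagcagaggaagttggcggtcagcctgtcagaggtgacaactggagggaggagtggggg
Ptgs2: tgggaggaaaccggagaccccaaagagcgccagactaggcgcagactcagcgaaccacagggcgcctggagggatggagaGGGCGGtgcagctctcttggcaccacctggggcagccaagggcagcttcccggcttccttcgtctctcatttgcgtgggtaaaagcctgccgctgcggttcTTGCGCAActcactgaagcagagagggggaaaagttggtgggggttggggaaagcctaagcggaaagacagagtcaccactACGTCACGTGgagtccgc
Motifs were searched on both strands in 300-base windows, which reach 50 bases past the start. The Ptgs2 window held the cAMP response element core ACGTCA at positions 13 to 18 and the E-box CACGTG at positions 17 to 22, which share 2 bases, the C/EBP palindrome TTGCGCAA at positions -69 to -62, and the GC box GGGCGG at positions -170 to -165. It also held TTAAAA, a variant of the TATA box, at positions 40 to 45, beyond the stretch printed. Of 32851 promoter windows of this length, 7.51% held ACGTCA, 7.15% CACGTG, 0.183% TTGCGCAA, 35.7% GGGCGG and 19.2% TTAAAA. The Ptgs1 window held none of these, nor TATAAA (13.6% of windows) or the AP-1 site TGACTCA (5.20%). Among the other members, GGGCGG was in the windows of Ptges, Ptgfr, Ptger4 and Hpgd, TGACTCA in that of Ptgds and TATAAA in that of Hpgd. RefSeq windows were matched for 8 of the 9 members; the one without an entry was Ptgis. TTAAAA was also in the window of Ptger2. Positions are counted from 1 at the start site, with no position 0. These matches describe letters only.

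Across the classes of at least 20 barcodes that could be named from their markers (10 in quadriceps and 3 in diaphragm, FAPs included), the members differed in where they were found. The highest level lay in FAPs for 4 of the 9, Ptgs1, Ptgs2, Ptges and Ptgfr. This count was not made over all genes and is a description only. Ptgis and Hpgd were highest in tenocyte-like cells, Ptger4 in NK-like cells, Ptgds in satellite-like cells, and Ptger2 was low in all classes. The members lie on several chromosomes (GRCm38 build, GENCODE annotation). Ptgds (chr2:25466709-25470046), Ptges (chr2:30889471-30929863), Ptgs1 (chr2:36230426-36252272) and Ptgis (chr2:167191805-167240604) share chromosome 2 at separate places, and Ptgs2 is at chr1:150100031-150108227. Ptgfr is at chr3:151796502-151837630, Hpgd at chr8:56294585-56321043, Ptger2 at chr14:44988195-45003820 and Ptger4 at chr15:5206661-5244187.

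**Figure D1:**
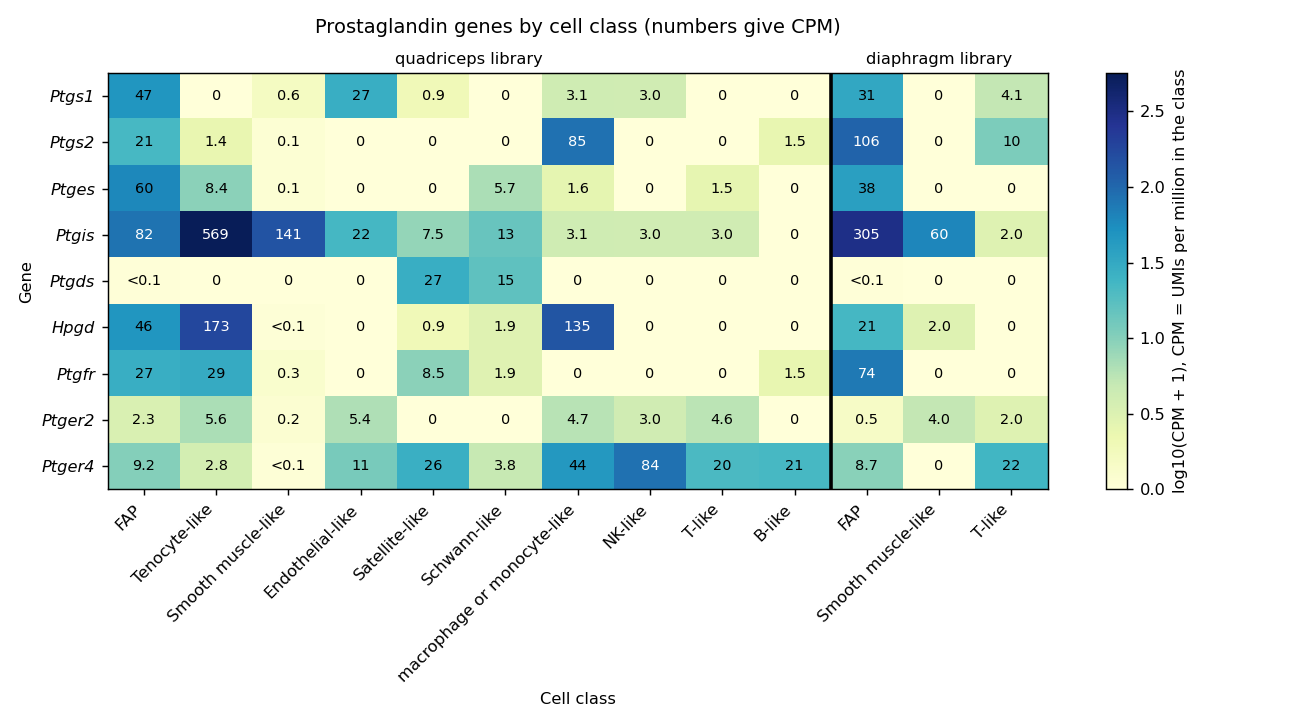
Levels of the 9 members (vertical axis) in each named cell class (horizontal axis), with the quadriceps library left and the diaphragm library right of the black line. Colour is log10(CPM + 1) and the printed number is CPM. Ptgs1, Ptges and Ptgfr stand out in FAPs, Ptgs2 in FAPs and macrophage or monocyte-like cells, and Ptgis in tenocyte-like cells, FAPs and smooth muscle-like cells.

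Ptgs1 was measured at 46.6 CPM (44.1 to 49.3, 1238 UMIs) in quadriceps FAPs and at 31.4 CPM (29.3 to 33.6, 812 UMIs) in diaphragm FAPs. FAPs carried 89.1% of all Ptgs1 UMIs of the quadriceps library and 90.6% of those of the diaphragm library. Of the UMIs of all genes, FAPs held 26559263 of 50854519 in quadriceps and 25876869 of 28545242 in diaphragm. The diaphragm shares given here, and below for Ptges, Ptgis and Ptger4, are to be read against that share. The next Ptgs1 level was 26.9 CPM in endothelial-like cells, led by the lymphatic genes Ccl21a, Mmrn1 and Lyve1, but it rested on 5 UMIs (8.74 to 62.8 CPM). Tenocyte-like cells held 0 Ptgs1 UMIs, which allows up to 4.19 CPM, and smooth muscle-like cells of quadriceps 0.566 CPM. An unnamed diaphragm cluster of 45 barcodes, with the mesothelial genes Upk3b and Msln among its leading genes and with 4 of 7 satellite markers raised, had 60.3 CPM from 15 UMIs (33.8 to 99.5).

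Ptgs2 was at 20.7 CPM (19.1 to 22.6, 551 UMIs) in quadriceps FAPs and at 106 CPM (103 to 111, 2755 UMIs) in diaphragm FAPs. The only other named class at a like level was the macrophage or monocyte-like class of quadriceps (81 barcodes, led by Lyz2, S100a9 and S100a8), with 84.9 CPM (63.8 to 111, 54 UMIs), whose interval overlapped that of diaphragm FAPs. T-like cells of diaphragm had 10.2 CPM from 5 UMIs. Satellite-like, Schwann-like, NK-like, T-like and endothelial-like cells of quadriceps held 0 Ptgs2 UMIs. In satellite-like cells this allows up to 2.83 CPM. Their summed level of 24 immediate early and stress genes was 34268 CPM, and that of FAPs 7049 CPM in quadriceps and 28993 CPM in diaphragm. A relation between these sums and Ptgs2 across classes was not tested.

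Of the terminal synthases, Ptges makes prostaglandin E2 and was nearly confined to FAPs in these libraries, with 59.5 CPM (56.6 to 62.5) in quadriceps and 37.9 CPM (35.5 to 40.3) in diaphragm. Those cells held 94.6% and 96.4% of its UMIs, and the next named class, tenocyte-like cells, had 8.38 CPM from 6 UMIs. Ptgis, prostacyclin synthase, was at 0 in 1 of 13 named groups, against 6 for Ptges and 9 for Ptgds. It reached 569 CPM (515 to 627) in tenocyte-like cells of quadriceps, 305 CPM (298 to 312) in diaphragm FAPs, 141 CPM (135 to 147) in smooth muscle-like cells of quadriceps and 81.9 CPM (78.5 to 85.4) in quadriceps FAPs. In smooth muscle-like cells of diaphragm, 46 barcodes, it was at 60.3 CPM (40.7 to 86.0). The median share of mitochondrial UMIs was 8.19% in tenocyte-like and 17.0% in quadriceps smooth muscle-like cells against 3.97% in FAPs of that library. At or below 5% mitochondrial UMIs, Ptgis was at 609 CPM (490 to 747) in the 14 tenocyte-like barcodes left and at 309 CPM (301 to 316) in diaphragm FAPs, and 0 smooth muscle-like barcodes were left. With the minimum of 20 barcodes for a class, the highest Ptgis level was then that of diaphragm FAPs. In the quadriceps library the 1051 smooth muscle-like barcodes held 43.5% of Ptgis UMIs and FAPs 42.2%, while diaphragm FAPs held 95.9% of the Ptgis UMIs of their library. Endothelium of blood vessels is known as a source of prostacyclin. The endothelial-like cells here, led by the lymphatic genes named above, gave 21.5 CPM from 4 UMIs (5.87 to 55.1), which is too few to place them.

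Ptgds, the lipocalin-type prostaglandin D2 synthase, was not a FAP gene in these data. Its UMIs numbered 1 in FAPs of each muscle, 29 in satellite-like cells (27.3 CPM, 18.3 to 39.3), 16 in Schwann-like cells (15.2 CPM, 8.71 to 24.7) and 8 in the unnamed diaphragm cluster described above. Of the 46 Ptgds UMIs of the quadriceps library, satellite-like cells held 63.0% and Schwann-like cells 34.8%. Hpgd, the dehydrogenase that starts prostaglandin breakdown, was at 173 CPM (144 to 207) in tenocyte-like cells, 135 CPM (108 to 167) in macrophage or monocyte-like cells, 46.0 CPM (43.5 to 48.7) in quadriceps FAPs and 21.3 CPM (19.6 to 23.1) in diaphragm FAPs. The intervals of the first 2 classes overlapped, and both lay above those of FAPs.

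Among the receptors, Ptgfr, which binds prostaglandin F2 alpha, was at 74.0 CPM (70.8 to 77.4) in diaphragm FAPs and 27.3 CPM (25.3 to 29.3) in quadriceps FAPs. Tenocyte-like cells had 29.3 CPM (18.2 to 44.9), an interval that overlapped that of quadriceps FAPs, and satellite-like cells 8.49 CPM from 9 UMIs. Ptger4, a prostaglandin E2 receptor that raises cAMP, was at higher levels in several immune classes and satellite-like cells than in FAPs: 84.4 CPM (56.1 to 122) in NK-like cells, 44.0 CPM (29.3 to 63.6) in macrophage or monocyte-like cells, 26.4 CPM (17.5 to 38.2) in satellite-like cells, 20.8 CPM in B-like cells, and 19.8 and 22.4 CPM in T-like cells of quadriceps and diaphragm. FAPs had 9.22 and 8.73 CPM and held 64.8% and 85.6% of the Ptger4 UMIs of their libraries, and smooth muscle-like cells of quadriceps 1 UMI in 15907877. The intervals of the NK-like and macrophage or monocyte-like classes overlapped. Ptger4 overlaps Ttc33, which lies on the opposite strand. Ptger2, the other cAMP-coupled receptor of prostaglandin E2 listed, had its highest named level at 5.59 CPM from 4 UMIs in tenocyte-like cells, and the intervals of the highest 4 groups overlapped.

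The share of cells with a UMI depends on depth, so each barcode was also thinned to 1000 UMIs. At that depth a Ptgis UMI was found in 31.5% of tenocyte-like cells (22.2 to 42.0), 25.5% of diaphragm FAPs (23.7 to 27.5), 10.2% of quadriceps smooth muscle-like cells (8.42 to 12.2) and 6.76% of quadriceps FAPs (5.77 to 7.85). Without thinning these shares were 73.9%, 89.4%, 58.2% and 36.0%, at medians of 5351, 12573, 15009 and 10782 UMIs. T-like cells, which served as a background class, had a Ptgis UMI in 1 of 131 thinned barcodes in quadriceps and 0 of 91 in diaphragm, at medians of 4933 and 5364 UMIs. In diaphragm, 0 of 91 allows a share of up to 3.30%. For Ptgs2, a UMI was found in 9.88% of macrophage or monocyte-like cells (4.36 to 18.5), 6.97% of diaphragm FAPs (5.90 to 8.18) and 1.62% of quadriceps FAPs (1.15 to 2.22) after thinning. The T-like background was 0 of 131 barcodes in quadriceps and 2 of 91, or 2.20% (0.267 to 7.71), in diaphragm. The share in quadriceps FAPs was under the 2.29% that 0 of 131 T-like barcodes allows but above that of smooth muscle-like cells of the same library, where 0 of 1051 allows up to 0.285%. Without thinning, the shares were 11.8% in quadriceps FAPs and 0.190% in those smooth muscle-like cells, at medians of 10782 and 15009 UMIs.

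The question of the tissue comparison is how FAPs of limb muscle and diaphragm differ in these genes. Ptgs2, Ptgis and Ptgfr were at least 2-fold higher in diaphragm FAPs, and Hpgd at least 2-fold higher in quadriceps FAPs. Ptgs1, Ptges and Ptger4 differed by less than 2-fold. A gene was compared where its mean was at least 5 CPM over both tissues, with a pseudocount of 1 CPM in each level, and 7 of the 9 members passed. Of the 10013 genes compared, 6.0% lay at least 2-fold apart, 2.67% higher in diaphragm and 3.34% higher in quadriceps. Of the 7 members, 3 were higher in diaphragm, 1 was higher in quadriceps and 3 were within 2-fold. The median log2 difference, diaphragm over quadriceps, was -0.07 for these 7 and -0.10 for all genes compared. The members were chosen with earlier results of these data known, so their counts are not a test against the share over all genes.

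Ptgs2 had 5.13 times the level in diaphragm FAPs (ratio without pseudocount, 4.68 to 5.63), and its log2 difference with the pseudocount was 2.31, a difference exceeded in that direction by 49 of the genes compared. Ptgis had 3.72 times the level (3.55 to 3.90, log2 difference 1.88), and Ptgfr 2.72 times (2.49 to 2.96, log2 difference 1.41). These 3 genes cover a cyclooxygenase, a terminal synthase and a receptor of different products. For Hpgd the quadriceps level was 2.16 times that of diaphragm (1.95 to 2.39, log2 difference -1.08), close to the limit of 2-fold. With a pseudocount of 5 CPM its log2 difference was -0.96 and with scaling by the median ratio of genes it was -0.97, so that it was no longer past 2-fold.

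The quadriceps level of Ptgs1 was 1.49 times that of diaphragm (1.36 to 1.62) and that of Ptges 1.57 times (1.45 to 1.70), both in the direction of Hpgd and opposite to Ptgs2. With FAP subclusters weighted equally, as set out with the subclusters, the sign of Ptgs1 turned. For Ptger4 the diaphragm level was 0.947 times that of quadriceps (0.787 to 1.14), an interval that includes no difference. Ptger2 fell below the limit on level, with 61 UMIs (2.30 CPM) in quadriceps FAPs against 12 UMIs (0.464 CPM) in diaphragm FAPs, a ratio of 4.95 (2.64 to 10.1). Ptgds, at 1 UMI in each, gave no comparison.

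**Figure D2:**
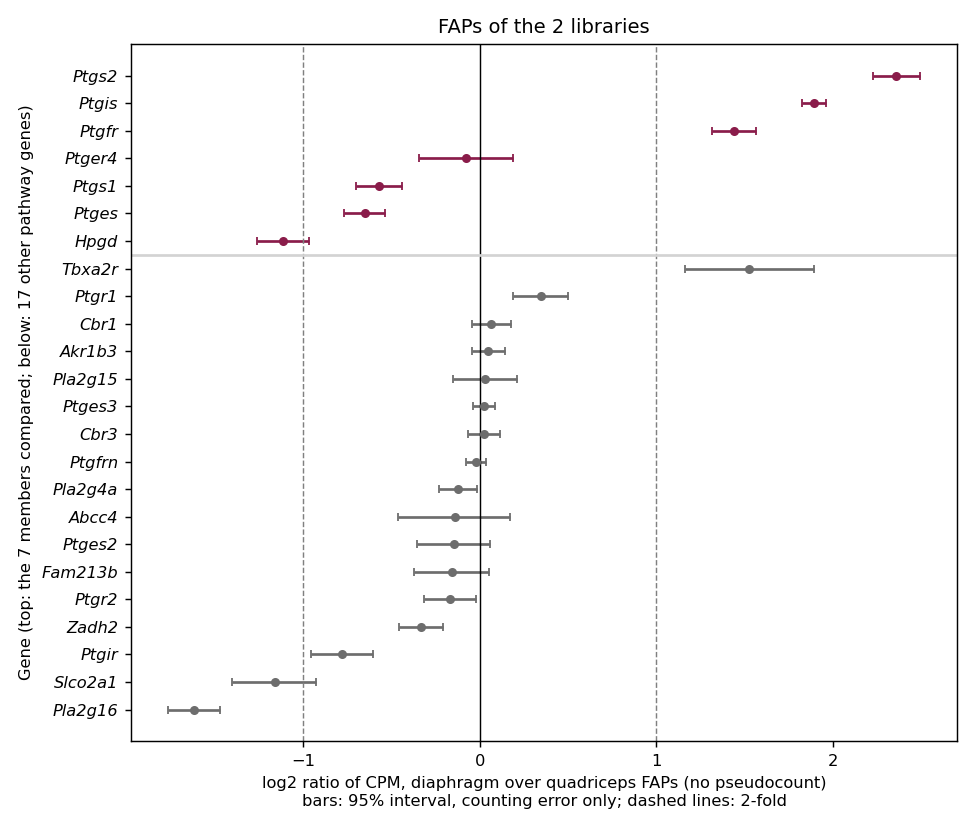
Log2 ratio of CPM (horizontal axis, no pseudocount) between diaphragm and quadriceps FAPs for the 7 members compared, in red at the top, and 17 other genes of the pathway, in grey. Bars are 95% intervals of counting error and dashed lines mark 2-fold; Ptgs2, Ptgis and Ptgfr lie right of the dashed line and most other pathway genes near 0.

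The same differences were seen in the share of FAPs with a UMI after each FAP was thinned to 5000 UMIs, which left 2234 quadriceps and 1967 diaphragm FAPs and took out 105 and 41. Ptgis was found in 24.3% of quadriceps FAPs (22.5 to 26.1) and 70.5% of diaphragm FAPs (68.4 to 72.5). Ptgs2 was found in 6.13% (5.17 to 7.21) and 18.6% (16.9 to 20.4), and Ptgfr in 12.0% (10.7 to 13.5) and 28.2% (26.2 to 30.3). Hpgd went the other way, with 16.4% (14.9 to 18.0) and 8.74% (7.53 to 10.1). Ptgs1 was found in 14.7% and 9.86% and Ptges in 24.9% and 16.5% of quadriceps and diaphragm FAPs. None of these pairs of intervals overlapped, but no such count was made over all genes. For Ptger4 they did overlap, with 4.43% (3.62 to 5.37) of quadriceps and 3.86% (3.06 to 4.81) of diaphragm FAPs. Without thinning, the shares of quadriceps and diaphragm FAPs were 36.0% and 89.4% for Ptgis, 11.8% and 27.9% for Ptgs2, 20.5% and 49.4% for Ptgfr, and 25.6% and 16.2% for Hpgd.

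Other features of the libraries moved with tissue. Of 23 immediate early and stress genes compared, 19 were at least 2-fold higher in diaphragm FAPs, with a median log2 difference of 2.10, among them Fos (264 and 2690 CPM in quadriceps and diaphragm) and Atf3 (27.7 and 514 CPM). The summed level of 7 tenocyte markers was 573 CPM in quadriceps FAPs and 1686 CPM in diaphragm FAPs, none of them at 0 in either, against 32676 CPM in tenocyte-like cells. The sum of 8 smooth muscle markers was 2241 CPM in quadriceps FAPs and 68.7 CPM in diaphragm FAPs, none of them at 0, and fell to 297 CPM in quadriceps without a subcluster of 55 FAPs led by Tagln and Myh11. The sum of 7 mesothelial markers was 7.27 CPM, with 4 at 0, and 97.2 CPM, with 0 at 0. The sum of 8 Schwann markers was 106 CPM in quadriceps FAPs, with 0 at 0, and 4.91 CPM in diaphragm FAPs, with 1 at 0, and that of 7 satellite markers 74.2 CPM, with 0 at 0, and 19.4 CPM, with 3 at 0. Their part in the tissue differences was not tested. The subclusters and the bins of immediate early UMIs described next are descriptions within 1 library per tissue and cannot test it. Immediate early genes were not left out of the clustering that gave the subclusters. Leaving out the barcodes that Scrublet called as doublets, 65 FAPs in quadriceps and 1 in diaphragm, kept the same 4 members past 2-fold.

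FAPs of both libraries were clustered together without the members and the other pathway genes, and 6 subclusters held at least 20 cells of each tissue. Ptgs2, Ptgis and Ptgfr were higher in diaphragm in 6 of 6 subclusters, by at least 2-fold in 5, 5 and 4 of them. Hpgd was lower in diaphragm in 6 of 6 and by at least 2-fold in 4. Ptges was within 2-fold in all 6, and Ptgs1 did not keep 1 direction. The level intervals of the tissues overlapped for Ptgs2 and Hpgd in the subcluster led by Fmod and Tnmd and for Ptgfr in that led by Cxcl13 and Socs3. In those subclusters the interval of the log2 ratio was 0.01 to 1.24 for Ptgs2 and -0.98 to -0.09 for Hpgd. For Ptgfr it was -0.39 to 1.36, which includes no difference. The subclusters share libraries and are not replicates. They are parts of the FAPs over which Ptgs2, Ptgis, Ptgfr and Hpgd were already past 2-fold. Their counts were not made over all genes and add no separate evidence.

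Ptgis gave the widest tissue differences within subclusters. In the subcluster led by Ptn and Prg4 it was at 22.4 CPM in quadriceps and 266 CPM in diaphragm (log2 difference 3.51), and in that led by Gfra1 and Hsd11b1 at 26.1 and 228 CPM (3.08). In the subcluster led by Fmod and Tnmd, 71 cells in quadriceps and 500 in diaphragm, it was high in both, at 216 and 465 CPM (1.10). The subcluster led by Lect1 and Gdf10 had the smallest difference, 128 and 187 CPM (0.54). Without the Fmod and Tnmd subcluster, which holds the tendon gene Tnmd and most of its cells in diaphragm, the log2 difference of Ptgis over all FAPs was 1.69.

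Ptgs2 was highest in the subcluster led by Cxcl13 and Socs3, with 99.2 CPM (72.6 to 132) in 35 quadriceps FAPs and 278 CPM (263 to 294) in 319 diaphragm FAPs. Elsewhere it ranged from 2.05 to 28.0 CPM in quadriceps and from 39.6 to 116 CPM in diaphragm. Its largest tissue difference was in the Gfra1 and Hsd11b1 subcluster, 14.6 and 94.4 CPM (log2 difference 2.62), and its smallest in the Fmod and Tnmd subcluster, 26.2 and 39.6 CPM (0.58). Without the Cxcl13 and Socs3 subcluster the log2 difference of Ptgs2 over all FAPs was 1.83.

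That subcluster also weighed on Ptgs1. It had 4 Ptgs1 UMIs in its 35 quadriceps FAPs (8.62 CPM, 2.35 to 22.1) and 319 in its 319 diaphragm FAPs (72.5 CPM, 64.7 to 80.9), a log2 difference of 2.93, while the other 5 subclusters lay between -0.87 and 0.31. Without it, Ptgs1 was past 2-fold, higher in quadriceps, at -1.01, and Hpgd was at -0.97 and no longer past 2-fold. With the 6 subclusters weighted equally, Ptgs1 was at 0.19, with the opposite sign, so no direction can be given for it. Leaving it out changed no call for Ptgs2, Ptgis and Ptgfr.

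Hpgd was highest among quadriceps FAPs in the Gfra1 and Hsd11b1 subcluster, 98.7 CPM against 18.3 CPM in diaphragm (log2 difference -2.37), and in the Lect1 and Gdf10 subcluster, 83.2 against 27.4 CPM (-1.57). Ptgfr was highest in the Lect1 and Gdf10 subcluster of diaphragm at 107 CPM, against 49.3 CPM in quadriceps (1.10). A quadriceps subcluster led by Dmkn and Sbsn, 213 cells with 6 in diaphragm, combined the highest Ptgs1 level of the subclusters, 141 CPM (127 to 155), with a low Ptgfr level of 2.19 CPM (0.802 to 4.76). A small quadriceps subcluster led by Spp1, 53 cells, was its opposite: 0 Ptgs1 and 0 Ptgis UMIs, with 142 CPM of Ptges (110 to 179), 86.3 CPM of Ptgfr (62.2 to 117) and 41.1 CPM of Ptger4 (25.1 to 63.4). Zero UMIs there allow up to 6.16 CPM.

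**Figure D3:**
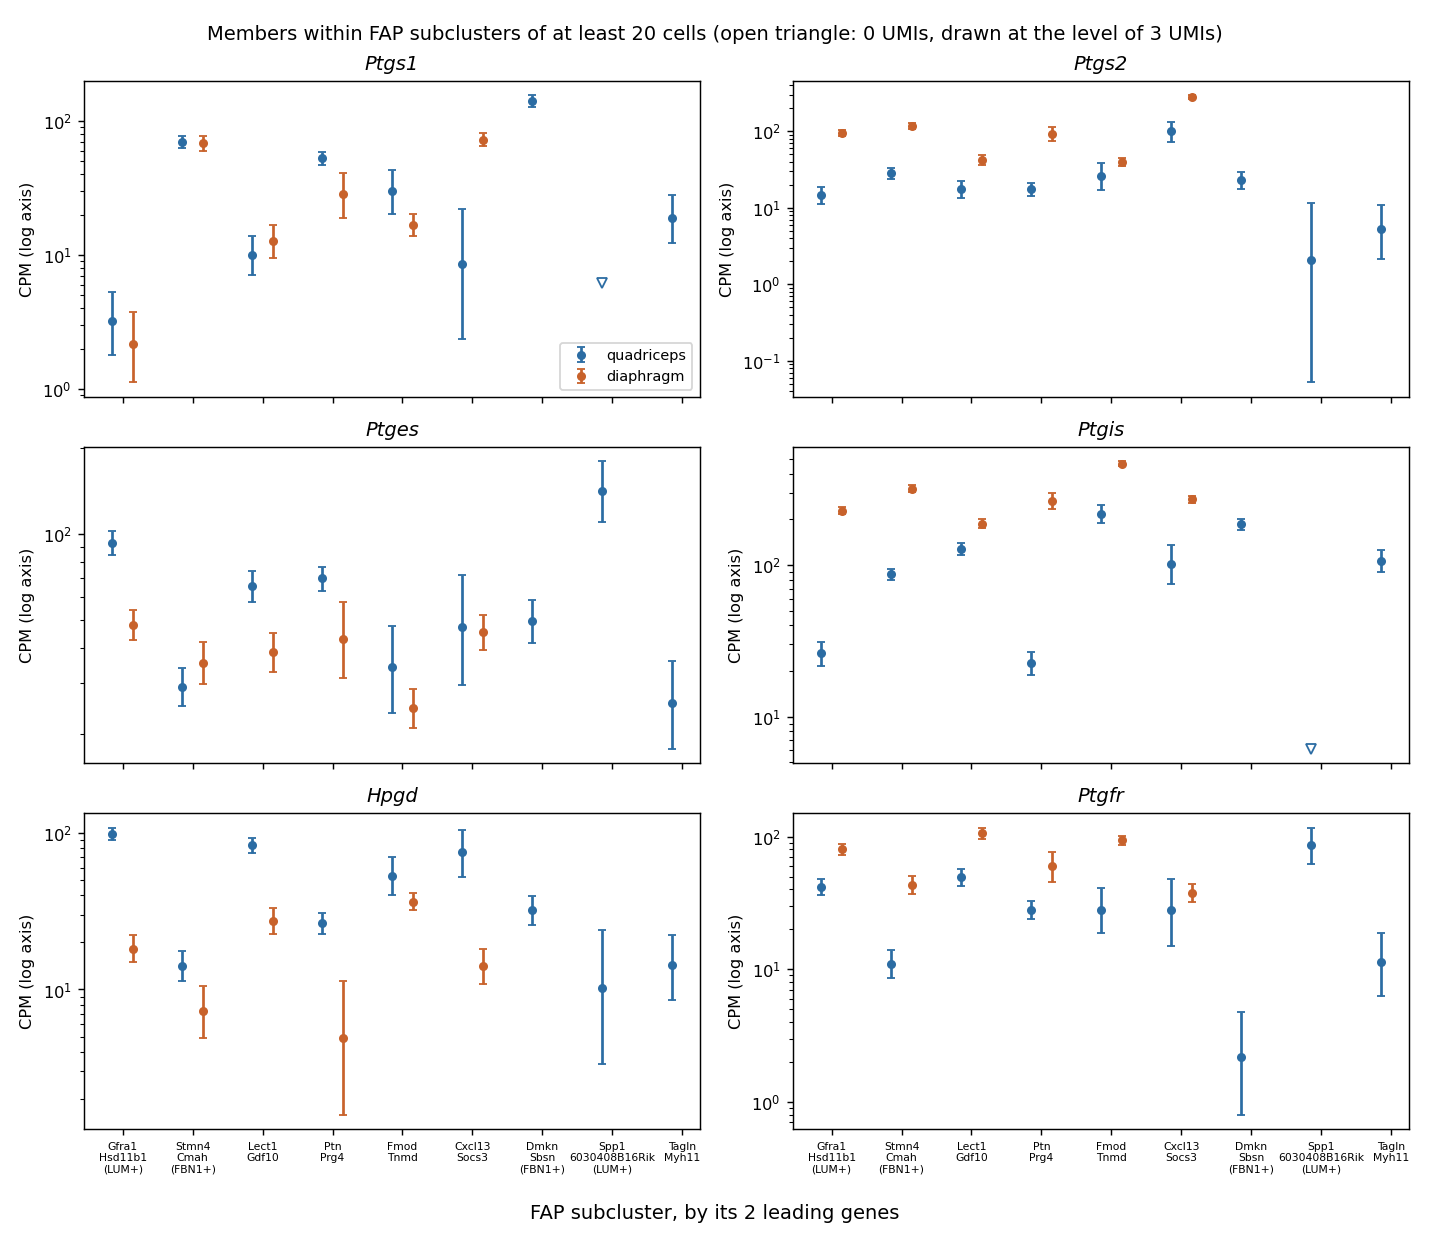
CPM on log axes of 6 members in each FAP subcluster with at least 20 cells, quadriceps in blue and diaphragm in orange, with 95% Poisson intervals. Orange points lie above blue ones for Ptgs2, Ptgis and Ptgfr and below them for Hpgd in each subcluster that has both, while the direction of Ptgs1 varies between subclusters.

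The study divides FAPs into FBN1+ and LUM+ subtypes, so subclusters that carried the markers of either were pooled by that name: 715 FBN1+ and 528 LUM+ FAPs in quadriceps, 282 and 465 in diaphragm, leaving 1096 and 1261 in neither. Of 9480 genes compared, 4.49% lay at least 2-fold apart in the same direction in both tissues, 2.14% higher in FBN1+ and 2.35% higher in LUM+. Of the 7 members that could be compared, 1 was higher in FBN1+ FAPs, Ptgs1, and 2 were higher in LUM+ FAPs, Ptger4 and Hpgd. Their median log2 difference, FBN1+ over LUM+, was -1.43 in quadriceps and -0.48 in diaphragm, beside -0.05 and 0.04 over all genes compared. These counts too come from members chosen with earlier results known and are no test of enrichment.

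Ptgs1 was low in LUM+ FAPs as named at the main clustering resolution, with 2.91 CPM (15 UMIs) in quadriceps and 2.13 CPM (12 UMIs) in diaphragm. FBN1+ FAPs had 92.2 CPM (85.9 to 98.7) and 70.7 CPM (62.8 to 79.3). The log2 differences with the pseudocount were 4.58 and 4.52. Their size depended on the processing: over 6 alternatives the smallest quadriceps value was 2.05 and the smallest diaphragm value 3.41, both still past 2-fold. The quadriceps subcluster led by Ptn and Prg4, 587 cells with 52.6 CPM of Ptgs1, belonged to neither subtype. The low LUM+ level therefore holds for the subtypes as named here. Ptger4 was at 2.40 CPM in FBN1+ and 14.3 CPM in LUM+ FAPs of quadriceps and at 1.96 and 11.7 CPM in diaphragm (log2 differences -2.17 and -2.10). Hpgd was at 19.8 CPM in FBN1+ and 90.3 CPM in LUM+ FAPs of quadriceps and at 7.12 and 17.9 CPM in diaphragm (-2.13 and -1.22). With a pseudocount of 5 CPM the diaphragm value of Hpgd was -0.92, so that it was no longer past 2-fold.

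The other 4 members compared were past 2-fold between the subtypes in quadriceps alone or in neither tissue. Ptgis was at 118 CPM in FBN1+ and 23.7 CPM in LUM+ FAPs of quadriceps (log2 difference 2.27), but at 318 and 226 CPM in diaphragm (0.49). Ptgfr was at 8.24 and 46.1 CPM in quadriceps (-2.35) and 42.0 and 81.4 CPM in diaphragm (-0.94). Ptges was at 35.6 and 97.9 CPM in quadriceps (-1.43) and 34.6 and 48.6 CPM in diaphragm (-0.48). For these 3 genes the subtype difference was of the same sign and smaller in size in diaphragm, which was not tested. Ptgs2 was at 26.4 and 13.4 CPM in quadriceps (0.93) and 117 and 93.1 CPM in diaphragm (0.32). At a finer clustering resolution of 1.0, Ptgs2 and Ptgfr also passed 2-fold in both tissues, and the background was 5.33%.

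Within single FAPs thinned to 5000 UMIs, Ptgs2 was found more often in FAPs with a Ptgs1 UMI than in those without. In quadriceps, a Ptgs2 UMI was found in 10.3% of 329 FAPs with Ptgs1 (7.26 to 14.1) and 5.41% of 1905 FAPs without it (4.43 to 6.52). In diaphragm the shares were 27.8% of 194 FAPs (21.7 to 34.7) and 17.6% of 1773 FAPs (15.9 to 19.5). Ptgs1 and Ptgfr went the other way: Ptgfr was found in 6.69% of quadriceps FAPs with Ptgs1 and 13.0% of those without, and in 14.4% and 29.7% in diaphragm. Hpgd likewise was found in 10.3% of quadriceps FAPs with Ptgs1 and 17.5% of those without, and in 3.61% and 9.31% in diaphragm. Within a library, the intervals of each of these pairs of shares did not overlap, and cells of 1 library are not replicates. Other partners of Ptgs1 were not apart in this way: intervals overlapped for Ptges and Ptger4 in both libraries and for Ptgis in diaphragm. There, Ptgis was found in 72.2% of FAPs with Ptgs1 and 70.3% of those without. No share over all pairs of genes was taken. The shares were taken over all FAPs and not within subclusters, which differ in the levels of these genes. They therefore do not show a relation between the genes within a subcluster.

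Since Ptgs2 is known as an inducible gene and the immediate early genes differed between the libraries, the members were set against the immediate early content of each FAP. The UMIs of 22 immediate early genes (the list of 24 without the heat shock genes Hspa1a and Hspa1b, and without any member) were counted in FAPs thinned to 5000 UMIs. This comparison and its bins were chosen after values had been seen. The median was 20 UMIs in quadriceps and 95 in diaphragm. FAPs with 100 or more made up 1.48% of quadriceps FAPs (33 cells) and 47.7% of diaphragm FAPs (939 cells).

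Ptgs2 was higher in bins of higher count from 10 to 99 in both libraries. With 10 to 24 immediate early UMIs it was at 9.81 CPM (7.39 to 12.8) in quadriceps and 5.88 CPM (1.91 to 13.7) in diaphragm, with 25 to 49 at 24.5 CPM (19.2 to 30.7) and 23.9 CPM (16.6 to 33.5), and with 50 to 99 at 61.8 CPM (46.0 to 81.3) and 70.4 CPM (60.9 to 81.1). In these 3 bins the intervals of the tissues overlapped. In FAPs with 100 or more it was at 164 CPM (153 to 176) in diaphragm and at 30.3 CPM (9.84 to 70.7, 5 UMIs) in the 33 quadriceps FAPs, and these intervals did not overlap. Without the Cxcl13 and Socs3 subcluster, the values at 50 to 99 were 61.0 CPM (44.8 to 81.2) and 42.1 CPM (34.5 to 50.9), and those at 100 or more were 27.6 and 120 CPM. Of the 33 quadriceps FAPs with 100 or more, 10 belonged to the Spp1 subcluster, which held 0 Ptgs2 UMIs over its 47 thinned FAPs and 1 over all 53 before thinning. Its Fos level, 3034 CPM, was the highest of the quadriceps subclusters. Without it the quadriceps level at 100 or more was 43.5 CPM (14.1 to 101), still apart from the 165 CPM (153 to 177) of diaphragm.

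Ptgis and Ptgfr differed between the tissues from 10 to 99 immediate early UMIs. Over this range Ptgis lay between 63.9 and 85.3 CPM in quadriceps and between 296 and 320 CPM in diaphragm, and Ptgfr between 28.1 and 35.2 CPM and between 78.8 and 83.1 CPM. The diaphragm level was the higher one, with intervals apart, in each of these 3 bins. In FAPs with 100 or more, the intervals of Ptgfr overlapped, at 48.5 CPM (20.9 to 95.5) in quadriceps and 73.7 CPM (66.1 to 81.9) in diaphragm. Hpgd was at 52.3 and 17.6 CPM in quadriceps and diaphragm with 10 to 24, at 30.7 and 26.8 CPM with 25 to 49, where the intervals overlapped, and at 61.8 and 25.2 CPM with 50 to 99. From 10 to 99 immediate early UMIs the intervals of the tissues were apart for Ptgis and Ptgfr and overlapped for Ptgs2. With 100 or more, the bin of 47.7% of diaphragm FAPs, those of Ptgs2 were apart, at 30.3 and 164 CPM in quadriceps and diaphragm. Whether immediate early content has a part in any of these differences was not tested.

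**Figure D4:**
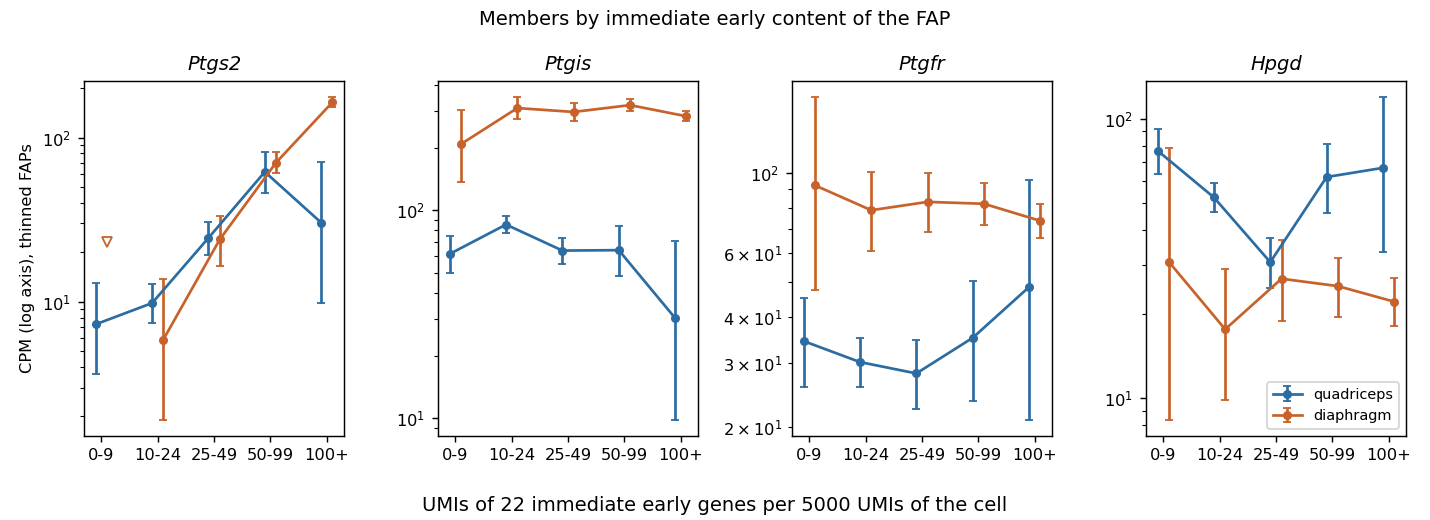
CPM on log axes of Ptgs2, Ptgis, Ptgfr and Hpgd in FAPs thinned to 5000 UMIs, by the number of UMIs of 22 immediate early genes in the cell (horizontal axis), with 95% Poisson intervals; the open triangle marks 0 UMIs at the level of 3 UMIs. The Ptgs2 intervals of the tissues overlap from 10 to 99 UMIs, where both climb, while those of Ptgis and Ptgfr stay apart there.

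Ptgs2 was lower in FAPs with a high share of mitochondrial UMIs, which often marks damaged cells. FAPs over 5% mitochondrial UMIs, 570 in quadriceps and 441 in diaphragm, had 8.71 and 32.1 CPM of Ptgs2, against 24.1 and 123 CPM in those at or below 5%. Ptgs1 was also lower over 5%, at 30.5 against 51.1 CPM in quadriceps and 13.5 against 35.4 CPM in diaphragm. Ptgis differed less, at 65.0 against 86.6 CPM and 289 against 309 CPM. With only FAPs at or below 5%, the same 4 members were past 2-fold between tissues, against a background of 5.57%.

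Of 30 other genes of the pathway, 17 could be compared between the tissues in FAPs. Of these, 1 was at least 2-fold higher in diaphragm, 2 in quadriceps and 14 were within 2-fold. Their median log2 difference was -0.12. Of all genes compared, 6.0% lay at least 2-fold apart, and this list too was chosen with earlier results known. Tbxa2r, the thromboxane receptor, was higher in diaphragm FAPs (3.24 and 9.31 CPM in quadriceps and diaphragm, log2 difference 1.28). The phospholipase Pla2g16 (61.1 and 19.9 CPM, -1.57) and the prostaglandin transporter Slco2a1 (18.4 and 8.23 CPM, -1.07) were higher in quadriceps FAPs. Pla2g4a, the cytosolic phospholipase A2 that supplies arachidonic acid to cyclooxygenases, was at 56.4 and 51.7 CPM, a quadriceps over diaphragm ratio of 1.09 (1.01 to 1.17). The prostaglandin E2 synthases Ptges2 and Ptges3 and the reductases Akr1b3, Cbr1 and Cbr3 were all within 2-fold, with log2 differences from -0.14 to 0.06. Without the Fmod and Tnmd subcluster, Pla2g16 was the only one of the 30 past 2-fold, with Tbxa2r at 0.83 and Slco2a1 at -0.79. Without the Cxcl13 and Socs3 subcluster, Slco2a1 was at -2.13, and it was within 2-fold under median-ratio scaling (-0.97).

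The receptors outside the member list placed other products in other classes. Ptgir, the prostacyclin receptor, was at 27.7 and 16.1 CPM in FAPs of quadriceps and diaphragm and at 28.3 CPM in macrophage or monocyte-like cells. Like Hpgd and Ptger4 it was higher in LUM+ than in FBN1+ FAPs, 32.8 against 8.36 CPM in quadriceps and 28.2 against 11.8 CPM in diaphragm. Of 15 pathway genes compared, it was the 1 past 2-fold in both tissues, beside 4.49% of all genes compared. Tbxa2r was highest in smooth muscle-like cells of quadriceps at 55.8 CPM (52.1 to 59.6), where Ptger3, a prostaglandin E2 receptor that lowers cAMP, was also highest among named classes at 13.0 CPM (11.3 to 14.9). Ptger3 in FAPs was below the limit on level, at 1.88 and 7.38 CPM in quadriceps and diaphragm. The prostaglandin D2 receptor genes Ptgdr and Ptgdr2 had 0 UMIs in FAPs of both muscles. Thromboxane synthase Tbxas1 was at 55.0 CPM in macrophage or monocyte-like cells and at 0.226 CPM in the next named class.

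Other genes whose level followed a member over the 13 named class and tissue groups are given as a description, since the groups share 2 libraries and differ in depth. By Pearson r of log2(CPM + 1), among 10611 genes, the most similar to Ptgs1 was Chst1 (0.955), to Ptgs2 Mmp19 (0.898), to Ptges Myoc (0.958), to Ptgis Plat (0.953), to Ptgfr Dclk1 (0.977), to Ptger4 Asnsd1 (0.938) and to Hpgd Derl1 (0.895). For Ptgds it was Ptprz1 (0.962), and Ptger2 was too low to be set against other genes.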

How the data were processed

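Mononuclear cells of pooled mouse quadriceps and diaphragm were assayed with the 10x Genomics Chromium 3′ kit, 1 library per muscle. The authors deposited UMI counts per gene and barcode; the submitters' processing notes name Cell Ranger 3.0.0, Seurat and the mm10 build. Barcodes with at least 1000 UMIs and at most 3 scaled MADs above the median log10 total were kept, with no mitochondrial limit. Each library, and the gated FAPs of both together, were clustered on 2000 variable genes without the members and other pathway genes (scanpy 1.11.5, leidenalg 0.10.2, 10 components, resolution 0.5). Clusters with over 50% gated barcodes were called FAP-like; others were named where 1 marker list alone had at least 3 markers raised 2-fold and led the top 10 genes, a rule set after the clusters were seen. FAPs were taken out of the other classes. Named in the text by rule were the 9 members, 30 pathway genes by role, 24 immediate early and stress genes, the leading genes of FAP subclusters and the genes most like each member. The members and lists were chosen with earlier results of these data known. Levels are summed counts scaled to 1000000 per class. No significance test was run, since each tissue has 1 library. A call is a fold of at least 2 at a pseudocount of 1 CPM, among genes with a mean of at least 5 CPM. The fold calculation was tested on simulated data. Doublets were kept in the main values; Scrublet called 98 and 4 barcodes. Promoter windows and sequences are from RefSeq (GRCm38.p6) and gene overlaps from GENCODE. The immediate early bins and alternatives without single subclusters or with subclusters weighted equally were added after the data were seen.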

Additional observations from a re-analysis of the deposited data

How the results depend on the processing

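Between the tissues in FAPs, 3 to 5 members were past 2-fold under the alternatives, with 4 as reported; Ptgs2, Ptgis and Ptgfr were among them, higher in diaphragm, under all 11, with log2 differences from 1.68 to 2.60, 1.57 to 2.04 and 1.15 to 1.55. With no filter on low values, Ptger2 was added. The number of other pathway genes past 2-fold, 3 as reported, was 1 with a pseudocount of 5 CPM, 5 with no filter on low values and 1 without the Fmod and Tnmd subcluster. The number of members past 2-fold between FBN1+ and LUM+ FAPs in both tissues, 3 as reported, was 5 at Leiden resolution 1.0, where the cause was not tested, and 2 with a pseudocount of 5 CPM, without Hpgd. The number with their highest level in FAPs, 4 as reported with no count over all genes beside it, was 5 at no more than 5% mitochondrial UMIs. Ptgis was then added because tenocyte-like cells fell below 20 barcodes. With cells weighted equally the number was 3, without Ptgs2. No called difference changed sign. No paired analysis was possible because each tissue has 1 library, so no replicate could be left out either. Tissue, pool of mice and library cannot be told apart, and classes under 100 barcodes rest on few UMIs for most members.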
